A study of Homo sapiens with 6 samples.

Results

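To compare the core and the margin of a breast tumor, RNA-seq was performed on xenografts of MDA-MB-231, a line of human breast cancer cells that lack estrogen and progesterone receptors and ERBB2 amplification (triple-negative). The same line, labelled WT, was injected orthotopically into the fourth mammary fat pads of female NSG mice, which lack T, B and natural killer cells, at an age of 6 to 8 weeks per the study's methods. Pieces of the tumor core (TC, n = 3) and of the tumor margin (TM, n = 3) were sequenced, with 3 mice per group, and the labels do not say whether a core and a margin came from the same mouse or how long the tumors had grown. A piece of margin can hold mouse host tissue beside the human cells, and no step that parts mouse from human reads was described. The genes described here are 10 small nucleolar RNA host genes, chosen by name as non-coding host transcripts that belong to the 5′ TOP class: GAS5, SNHG1, SNHG5, SNHG6, SNHG7, SNHG8, SNHG12, SNHG15, SNHG16 and ZFAS1. All 10 were found among the 60671 annotated genes of the matrix, and all 10 reached at least 1 TPM (a transcript level corrected for length and scaled to a fixed sum per sample) in at least 3 of the 6 samples, as did 13861 genes in all.

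Small nucleolar RNAs (snoRNAs) guide the chemical modification of ribosomal RNA in the nucleolus: box C/D snoRNAs direct the methylation of riboses and box H/ACA snoRNAs direct the conversion of uridine to pseudouridine. Most human snoRNAs are cut out of the introns of a longer transcript, the host. In the host genes described here the spliced exons code for no known conserved protein, so that the introns carry the best conserved product. Many host transcripts are known to start with a C followed by a run of pyrimidines, the terminal oligopyrimidine (TOP) tract shared with the messenger RNAs of ribosomal proteins, through which mTORC1 controls translation. Ribosomes that read the short frames of a spliced host soon meet a stop codon, and the RNA is then removed by nonsense-mediated decay (NMD), so a host RNA's level depends on transcription and on decay.

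The start sites of the genes are shown first, because the pyrimidine start is what places the genes in 1 class. The sequences run 5′ to 3′ on the strand of the gene, from 40 bases before the annotated start to 15 bases from it, and come from RefSeq on GRCh38.p14, whose promoter table held 8 of the 10 genes. Capitals mark a pyrimidine run (a C and at least 4 further C or T) that begins within 10 bases of the start, and a TATA box (TATAAA or TATATAA) that lies 40 to 11 bases before it.
GAS5, chr1:173869031-173869085, minus strand: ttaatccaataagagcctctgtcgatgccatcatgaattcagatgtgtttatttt
SNHG1, chr11:62855871-62855925, minus strand: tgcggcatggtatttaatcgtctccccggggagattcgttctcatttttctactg
SNHG5, chr6:85678719-85678773, minus strand: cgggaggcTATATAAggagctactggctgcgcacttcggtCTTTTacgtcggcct
SNHG7, chr9:136728170-136728224, minus strand: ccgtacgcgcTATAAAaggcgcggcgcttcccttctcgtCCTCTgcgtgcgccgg
SNHG8, chr4:118278722-118278776, plus strand: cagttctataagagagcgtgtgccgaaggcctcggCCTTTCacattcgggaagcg
SNHG12, chr1:28581859-28581913, minus strand: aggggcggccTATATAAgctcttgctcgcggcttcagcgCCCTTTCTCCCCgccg
SNHG16, chr17:76557724-76557778, plus strand: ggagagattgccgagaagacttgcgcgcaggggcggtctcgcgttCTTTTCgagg
ZFAS1, chr20:49278602-49278656, plus strand: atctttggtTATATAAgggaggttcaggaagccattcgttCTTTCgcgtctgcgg

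A pyrimidine run of this kind was present in 6 of the 8 genes and in 31.4% of the 35116 promoters of the table, and the longest run, of 12 bases, was that of SNHG12. GAS5 and SNHG1 had no such run near these starts. Since the genes were chosen as TOP transcripts, this is a check of the label and not a result. For GAS5, 6 of its 29 annotated transcripts in GENCODE release 29 (GRCh38) share another start, further downstream, that does carry the tract, and the first 30 bases of these transcripts are shown for that reason, with the run in capitals.
GAS5, chr1:173867960-173867989, minus strand: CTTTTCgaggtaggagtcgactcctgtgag
The first 11 bases, CTTTTCgaggt, are also the first bases of 2 of the 8 annotated SNHG16 transcripts, and these 8 transcripts of 2 genes are the only ones of 206694 in the release that begin so. Across the 10 genes, 23 of 136 annotated transcripts began with a C and 4 pyrimidines, or 16.9%, against 2.41% of all transcripts. At SNHG7 and SNHG15 the count was 0 of 4 and 0 of 10, so SNHG7 met the label only by the run near its RefSeq start, and SNHG15 had no match at its annotated starts.

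A TATA box on the strand of the gene lay 40 to 11 bases before the start in 4 of the 8 genes (SNHG5, SNHG7, SNHG12 and ZFAS1) and in 2.74% of all promoters. GGGCGG, the GC box, was found on either strand between 250 bases before and 50 bases after the start in 7 of 8 genes and in 45.0% of all promoters. The E-box CACGTG was found in 1 of 8 (SNHG7) and in 7.26% of all promoters, and the ETS core CCGGAAG in 0 of 8 and in 10.3%. None of these motifs overlaps another in its letters, and a match describes the sequence only.

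The annotation places 26 snoRNA gene entries inside 9 of the hosts on the same strand, 15 of box C/D, 9 of box H/ACA and 2 under family names, and these run from 69 to 137 bases. SNHG1 holds 7 entries, SNHG12 holds 5, SNHG7 holds 4, SNHG16 and ZFAS1 hold 3 each, and the other hosts 1 each. None is nested in GAS5 in this release, although the gene is known as a host of several box C/D snoRNAs. All 26 entries had a line in the matrix, and 24 of them were at 0 TPM in all 6 samples. The exceptions were an entry of the SNORD22 family in SNHG1, at 37.06 TPM in TM replicate 2 and at 0 in the other 5 samples, and SNORA44 in SNHG12, at 13.1 TPM in TM replicate 3 and at 0 elsewhere. The values below are therefore those of the host transcripts, and no level can be given for the snoRNAs. Of the 26 entries, 22 overlap an exon of at least 1 annotated host transcript. Whether such an exon is a retained intron was not examined.

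**Figure D1:**
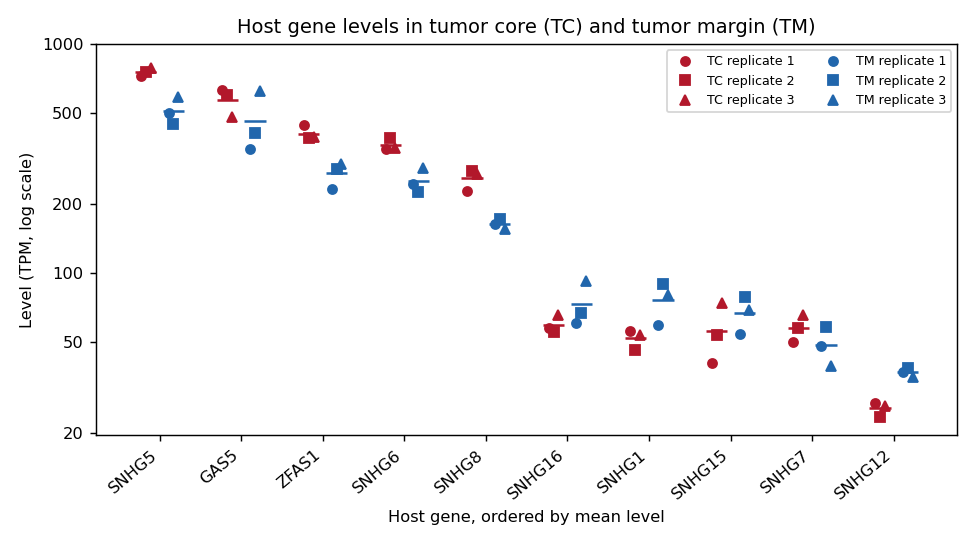
TPM of the 10 host genes (vertical axis, log scale) in each of the 3 TC (red) and 3 TM (blue) samples, with the replicate number as the symbol and the group mean as a bar. SNHG5, ZFAS1, SNHG6 and SNHG8 have every TC value above every TM value, and SNHG1 and SNHG12 have every TC value below.

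The hosts ranged from 31.4 to 632 TPM and fell into a high and a low tier. Over the 6 samples the mean was 632 TPM for SNHG5, 516 for GAS5, 340 for ZFAS1, 308 for SNHG6 and 212 for SNHG8. The other 5 followed at a distance, with 66.4 TPM for SNHG16, 64.2 for SNHG1, 61.8 for SNHG15, 53.2 for SNHG7 and 31.4 for SNHG12. The ranges of neighbours in this order were apart at only 2 places, between SNHG8 (lowest sample 156.59) and SNHG16 (highest 92.28), and between SNHG7 (lowest 39.48) and SNHG12 (highest 38.61). Within a sample, GAS5 exceeded ZFAS1, SNHG6 exceeded SNHG8 and SNHG7 exceeded SNHG12 in 6 of 6 samples. SNHG5 exceeded GAS5, and SNHG16 exceeded SNHG1, in 5 of 6. ZFAS1 exceeded SNHG6, SNHG1 exceeded SNHG15 and SNHG15 exceeded SNHG7 in only 4 of 6.

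Together the hosts made up 0.261%, 0.266% and 0.257% of all TPM in the TC samples and 0.175%, 0.188% and 0.228% in the TM samples. The TC samples lay close together and all above the margin, and TM replicate 3 was the margin sample nearest to the core. At an adjusted p under 0.05 by limma on log2(TPM + 1), the test used throughout, 0 of the 10 hosts passed, and 0.137% of the 13861 tested genes did (19 genes). At an unadjusted p under 0.05, 4 hosts were higher in TC, where 1.93% of tested genes were, and 2 were lower, where 14.2% of tested genes were. With every TC value above every TM value there were 4 hosts against 3.28% of tested genes, and with every TC value below there were 2 hosts against 18.9%. On the log2(TPM + 1) scale the median of the hosts' differences (core minus margin) was 0.30, and the median of all tested genes was -0.14.

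**Figure D2:**
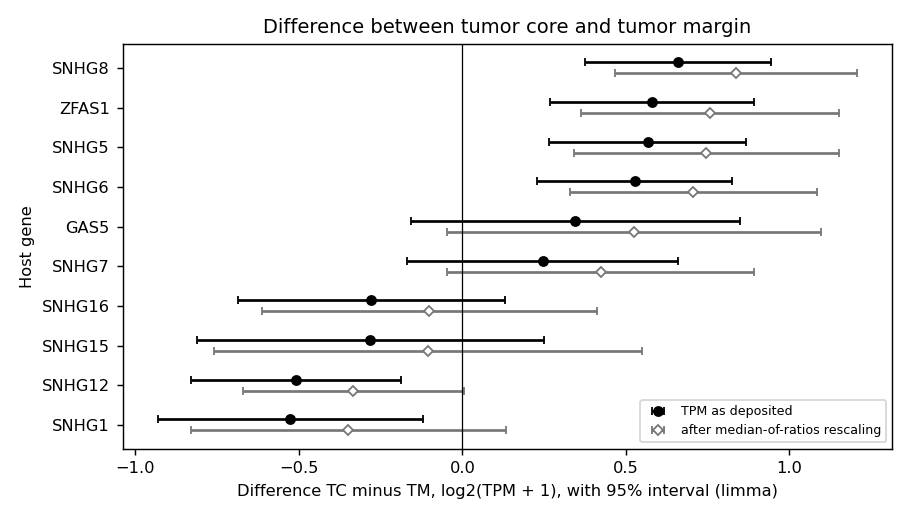
Core minus margin difference of each host in log2(TPM + 1) (horizontal axis) with the 95% interval from limma, for TPM as deposited (black) and after median-of-ratios rescaling (grey). The intervals of SNHG8, ZFAS1, SNHG5 and SNHG6 lie above 0 on both scales, and those of SNHG1 and SNHG12 lie below 0 only for TPM as deposited.

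TPM is a share of a fixed sum, so a difference of 0 depends on what the other genes do. Rescaling by median-of-ratios factors moved the median of all tested genes from -0.14 to 0.021, and that of the hosts from 0.30 to 0.47. None of the 10 hosts changed direction under this rescaling, but the hosts that were lower in TC came closer to 0. At an unadjusted p under 0.05, 4 hosts were then higher in TC and 0 lower, where 5.76% of all tested genes were higher and 7.65% lower. In these bulk samples fewer cells of a type and less RNA per cell cannot be told apart.

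Among the hosts of box C/D snoRNAs, SNHG5 (chr6:85660950-85678748, minus strand in GENCODE release 29), which carries SNORD50B and was first met at a chromosome break in B-cell lymphoma, had the highest level. Its values were 722.88, 754.75 and 781.76 TPM in TC and 501.07, 447.49 and 584.94 TPM in TM. The groups did not overlap, and the margin samples were more spread. The means were 753 ± 29.5 and 511 ± 69.3 TPM (SD, n = 3 each), a ratio of 1.47. On the log2 scale the difference was 0.57 (SE 0.13, 95% interval 0.26 to 0.87), with an adjusted p of 0.0989 by limma.

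GAS5 (chr1:173863900-173868882, minus strand), named for its build-up in growth-arrested cells and a known target of NMD, was at 630.11, 601.85 and 482.15 TPM in TC and at 347.13, 410.85 and 624.62 TPM in TM. Both groups were wide and overlapped: TM replicate 3 stood with the higher core samples, and TC replicate 3 was the lowest of the core. The means were 571 ± 78.5 and 461 ± 145 TPM (SD, n = 3 each). The difference was 0.35 (SE 0.22, 95% interval -0.16 to 0.85, adjusted p = 0.508 by limma), and leaving out TM replicate 1 gave 0.16 while leaving out TM replicate 3 gave 0.59.

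ZFAS1 (chr20:49278178-49295738, plus strand), which carries SNORD12, SNORD12B and SNORD12C and is named as the antisense partner of the ZNFX1 start, was at 441.03, 387.95 and 391.25 TPM in TC and at 232.56, 285.72 and 301.06 TPM in TM. No margin sample reached the core samples. The means were 407 ± 29.7 and 273 ± 35.9 TPM (SD, n = 3 each), a ratio of 1.49, and the difference was 0.58 (SE 0.14, 95% interval 0.27 to 0.89, adjusted p = 0.0999 by limma).

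SNHG6 (chr8:66921684-66926398, minus strand), the host of SNORD87, was at 348.53, 390.74 and 351.85 TPM in TC and at 245.97, 225.69 and 287.11 TPM in TM. Again the core samples all lay above the margin samples, with TM replicate 3 the nearest. The means were 364 ± 23.5 and 253 ± 31.3 TPM (SD, n = 3 each), a ratio of 1.44, and the difference was 0.53 (SE 0.13, 95% interval 0.23 to 0.83, adjusted p = 0.113 by limma).

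SNHG1 (chr11:62851988-62855914, minus strand), which has more nested box C/D entries than the other hosts in this annotation (where GAS5 has none), SNORD22, SNORD25 to SNORD28 and SNORD30 among them, had the opposite direction. It was at 56.12, 46.46 and 53.76 TPM in TC and at 59.25, 89.52 and 80.26 TPM in TM. The groups did not overlap, but TM replicate 1 was only just above the highest core sample. The means were 52.1 ± 5.04 and 76.3 ± 15.5 TPM (SD, n = 3 each), so the margin was 1.46 times the core. The difference was -0.53 (SE 0.18, 95% interval -0.93 to -0.12, adjusted p = 0.199 by limma), and -0.35 after median-of-ratios rescaling (95% interval -0.83 to 0.13).

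SNHG16 (chr17:76557766-76565348, plus strand) holds SNORD1A, SNORD1B and SNORD1C. As shown above, 2 of its 8 annotated transcripts share their first 11 bases with 6 of the 29 of GAS5. SNHG16 was at 57.41, 55.17 and 65.75 TPM in TC and at 60.4, 67.17 and 92.28 TPM in TM. The groups overlapped and TM replicate 3 was the highest sample. The difference was -0.28 (SE 0.18, 95% interval -0.69 to 0.13, adjusted p = 0.512 by limma), and it was -0.10 both without TM replicate 3 and after median-of-ratios rescaling.

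Among the hosts of box H/ACA snoRNAs, SNHG8 (chr4:118278709-118279823, plus strand), the shortest of the 10 loci and the host of SNORA24, had the largest difference of the 10 in TPM as deposited. With the length and GC trend removed those of ZFAS1 (0.78) and, by little, SNHG5 (0.6583 against 0.6576 for SNHG8) were larger. Without TC replicate 2 that of ZFAS1 was larger, and without TM replicate 3 those of SNHG5 and ZFAS1 were. Without TM replicate 1 that of SNHG1 was larger in size, in the other direction. SNHG8 was at 229.46, 279.15 and 271.98 TPM in TC and at 163.36, 171.85 and 156.59 TPM in TM. The margin samples were tight and well below the lowest core sample. The means were 260 ± 26.9 and 164 ± 7.65 TPM (SD, n = 3 each), a ratio of 1.59. The difference was 0.66 (SE 0.12, 95% interval 0.38 to 0.94), the adjusted p by limma was 0.0843, and its rank by p among all tested genes was 101.

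SNHG7 (chr9:136721366-136728184, minus strand), the host of SNORA17A and SNORA17B, was at 49.89, 57.45 and 65.7 TPM in TC and at 48.38, 58.52 and 39.48 TPM in TM. The groups overlapped. The difference was 0.25 (SE 0.18, 95% interval -0.17 to 0.66, adjusted p = 0.576 by limma), and leaving out 1 library took it from 0.11 (without TM replicate 3) and 0.15 (without TC replicate 3) to 0.38 (without TM replicate 2). It was the only host of the low tier with a higher mean in TC, at 57.7 ± 7.91 against 48.8 ± 9.53 TPM (SD, n = 3 each).

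SNHG15 (chr7:44983023-44986961, minus strand), the host of SNORA9, was at 40.72, 54.01 and 73.85 TPM in TC and at 54.35, 78.43 and 69.24 TPM in TM. The core samples alone spanned nearly the range of all 6 samples. The difference was -0.28 (SE 0.23, 95% interval -0.81 to 0.25, adjusted p = 0.616 by limma), and it was -0.075 without TC replicate 1, -0.17 without TM replicate 2, -0.43 without TM replicate 1 and -0.50 without TC replicate 3.

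SNHG12 (chr1:28578538-28583132, minus strand) carries both kinds, SNORD99 beside SNORA16A, SNORA44 and SNORA61. It was at 27.28, 23.5 and 26.43 TPM in TC and at 37, 38.61 and 35.34 TPM in TM. Both groups were tight and did not overlap. The means were 25.7 ± 1.98 and 37.0 ± 1.64 TPM (SD, n = 3 each), so the margin was 1.44 times the core, and the difference was -0.51 (SE 0.14, 95% interval -0.83 to -0.19, adjusted p = 0.137 by limma). After median-of-ratios rescaling it was -0.33 (95% interval -0.67 to 0.0035).

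**Figure D3:**
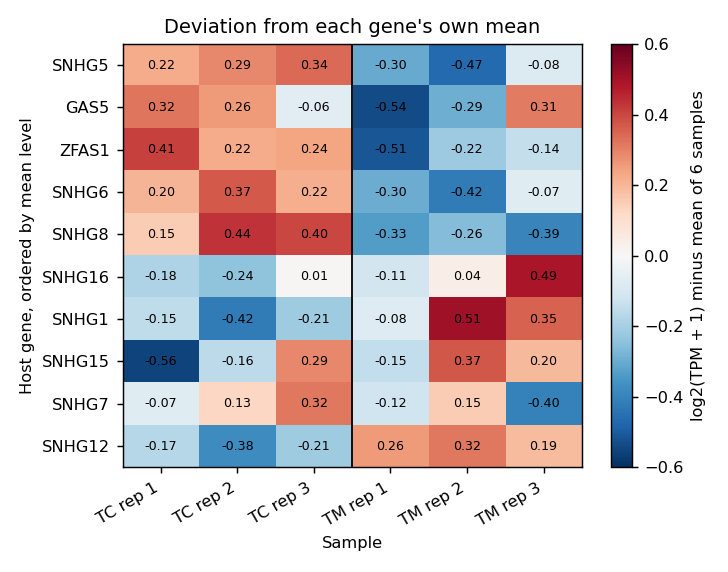
Deviation of each host from its own mean over the 6 samples, in log2(TPM + 1), with hosts as lines ordered by mean level and samples as columns. SNHG5, ZFAS1, SNHG6 and SNHG8 are positive in the 3 TC columns and negative in the 3 TM columns, SNHG1 and SNHG12 deviate the other way except that SNHG1 is at -0.08 in TM replicate 1, and GAS5 is positive at 0.31 in TM replicate 3.

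The hosts did not share 1 profile over the samples. Around the mean profile of the 10, single hosts lay at a root mean square distance of 0.22 (SNHG7) to 0.36 (SNHG1) on the log2 scale. By the same measure the tested genes nearest to the mean profile were VPS51 (0.039), a subunit of a vesicle tethering complex, HSD17B8 (0.044), a hydroxysteroid dehydrogenase, and ARL16 (0.051), a small GTPase. These were at 101, 15.7 and 41.3 TPM in the core and at 88.3, 13.4 and 36.4 TPM in the margin on average, so a profile that averages over hosts of opposite direction is a shallow one.

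The direction of the hosts went with their level. This was noticed after the values were seen. The 5 hosts with a mean over 150 TPM all had a higher mean in TC, and 4 of the 5 below it had a higher mean in TM. Summed, the high tier was at 2372, 2414 and 2279 TPM in TC and at 1490, 1542 and 1954 TPM in TM. The low tier was at 231, 237 and 285 TPM in TC and at 259, 332 and 317 TPM in TM, which overlapped. The background differed by level as well. Of 855 tested genes over 150 TPM, 53.8% had a higher mean in TC, 13.5% had every TC value above every TM value and 8.30% every TC value below. Of 3883 genes over 20 and up to 100 TPM these shares were 31.8%, 3.63% and 22.7%. A higher mean in TC was found for 36.4% of the 442 genes between these levels and for 31.4% of the 8681 genes at 20 TPM or less. The tiers also differed in length, since the median annotated transcript of the high hosts measured 470 (SNHG8) to 688 bases (GAS5) and that of the low hosts 748 (SNHG1) to 1473 bases (SNHG7). With a trend over transcript length and GC content removed from each sample, an alternative added after the data were seen, all 10 hosts kept their direction, with 0.66 for SNHG5, 0.56 for SNHG6, 0.66 for SNHG8, 0.78 for ZFAS1, -0.45 for SNHG1 and -0.33 for SNHG12. The difference of SNHG7 was then 0.53, and that of SNHG15 was -0.076.

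**Figure D4:**
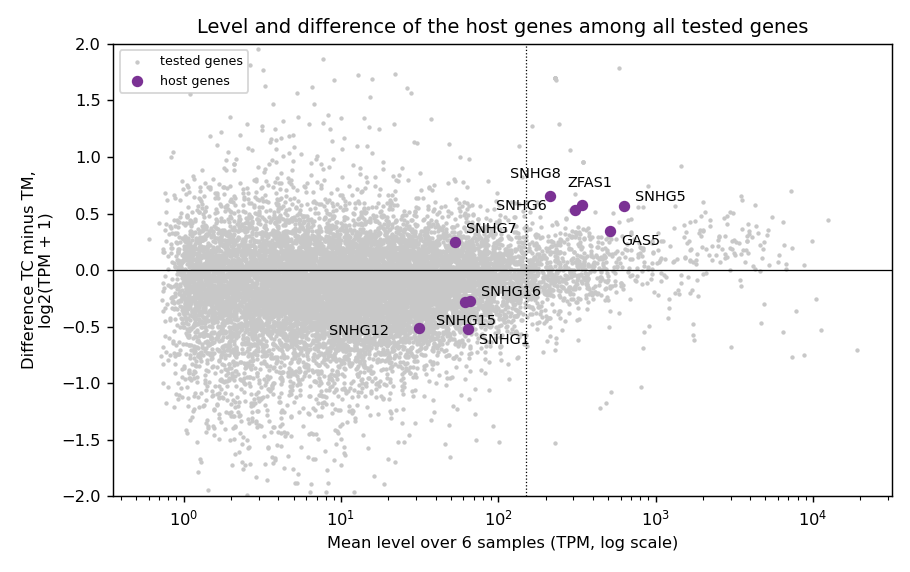
Mean level over 6 samples (horizontal axis, TPM, log scale) against the difference TC minus TM in log2(TPM + 1) for all tested genes (grey) and the 10 hosts (purple), with a dotted line at 150 TPM; 66 genes lie outside the vertical range. The 5 hosts to the right of the line are above 0, and 4 of the 5 to its left are below 0.

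Several hosts face a protein-coding gene. Per the study's methods the aligner was run in an orientation mode, but the kit was not stated to keep strand. Whether reads of a host and of a partner that overlaps it on the other strand were kept apart is therefore not known. ZNFX1, whose start lies 248 bases from that of ZFAS1, was at 25.04, 20.61 and 15.51 TPM in TC and at 28.65, 24.43 and 32.65 TPM in TM. Its difference of -0.48 had the opposite sign to that of ZFAS1 and did not pass (adjusted p = 0.303 by limma). SLC3A2, an amino acid transporter subunit that starts 188 bases from SNHG1, was at 115 to 120 TPM in TC and at 117 to 138 TPM in TM, with a difference of -0.14 (adjusted p = 0.634 by limma). TRNAU1AP, which overlaps SNHG12 and serves selenocysteine incorporation, was at 20.6 to 22.8 TPM in TC and at 18.8 to 21.2 TPM in TM, with a difference of 0.13 (adjusted p = 0.749 by limma). FAM69B over SNHG7 did not exceed 3.1 TPM in any sample, ZBTB37 beside GAS5 did not exceed 1.28 TPM, and MCMDC2 and AC015802.6 did not exceed 0.1 TPM.

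Hosts outside the 10 lay on both sides of 0. Of 15 tested non-coding hosts from a further list, 3 were higher and 3 lower in TC at an unadjusted p under 0.05, with a median of 0.025, where 1.93% of all tested genes were higher and 14.2% lower. After median-of-ratios rescaling 4 were higher and 1 lower, with a median of 0.20, where the shares of all tested genes were 5.76% and 7.65%. SNHG29 was at 820.53, 785.9 and 687.36 TPM in TC and at 509.23, 515.18 and 673.38 TPM in TM, like the high tier in level and direction (difference 0.44, adjusted p = 0.198 by limma). EPB41L4A-AS1 had the largest difference of this list, 1.29 (adjusted p = 0.123 by limma), from means of 31.0 ± 7.03 and 12.7 ± 5.32 TPM (SD, n = 3 each). SNHG4 was on the other side at -0.999, from 11.7 ± 5.99 and 22.6 ± 2.48 TPM (adjusted p = 0.197 by limma). SNHG25 was at 12.7 ± 1.22 TPM in TC and 7.87 ± 1.42 TPM in TM (SD, n = 3 each), a difference of 0.64 (adjusted p = 0.175 by limma).

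Of 20 tested protein-coding hosts, 3 were higher and 3 lower at an unadjusted p under 0.05, with a median of 0.085. Of all tested genes 1.93% were higher and 14.2% lower. After median-of-ratios rescaling 8 were higher and 2 lower, with a median of 0.26, where the shares of all tested genes were 5.76% and 7.65%. NOP56, a core protein of box C/D snoRNPs and itself a host, was at 136.19, 131.24 and 169.63 TPM in TC and at 232.84, 263.92 and 226.12 TPM in TM. Its groups were far apart, with a difference of -0.73 and an adjusted p of 0.0843 by limma. TPT1, a TOP messenger RNA, stood on the other side at 0.51 (adjusted p = 0.181 by limma).

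Genes that share the start of the hosts were compared next. Of 84 tested ribosomal protein genes, the main TOP messenger RNAs, 24 were higher in TC and 0 lower at an unadjusted p under 0.05. Of all tested genes 1.93% were higher and 14.2% lower. In 39 of the 84 every TC value was above every TM value, against 3.28% of all tested genes. Most of the 84 were over 150 TPM, where that share was 13.5% of tested genes. The median difference of the 84 was 0.26. After median-of-ratios rescaling 39 were higher and 0 lower at an unadjusted p under 0.05. The shares of all tested genes were then 5.76% and 7.65%. RPL34 led them, at 1122 ± 85.3 TPM in TC and 670 ± 45.0 TPM in TM (SD, n = 3 each, difference 0.74, adjusted p = 0.0658 by limma). Ribosomal protein genes took up 24.8%, 27.2% and 26.6% of all TPM in TC and 20.8%, 20.1% and 24.2% in TM (p = 0.1 by a two-sided exact permutation test, which cannot go lower with 3 samples a side). Relative to them, the hosts were at 1.05%, 0.977% and 0.968% of ribosomal protein TPM in TC and at 0.844%, 0.935% and 0.942% in TM, so the groups stayed apart but came close. Of 22 other TOP messenger RNAs, 1 was higher (TPT1) and 0 lower, with a median of 0.048.

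**Figure D5:**
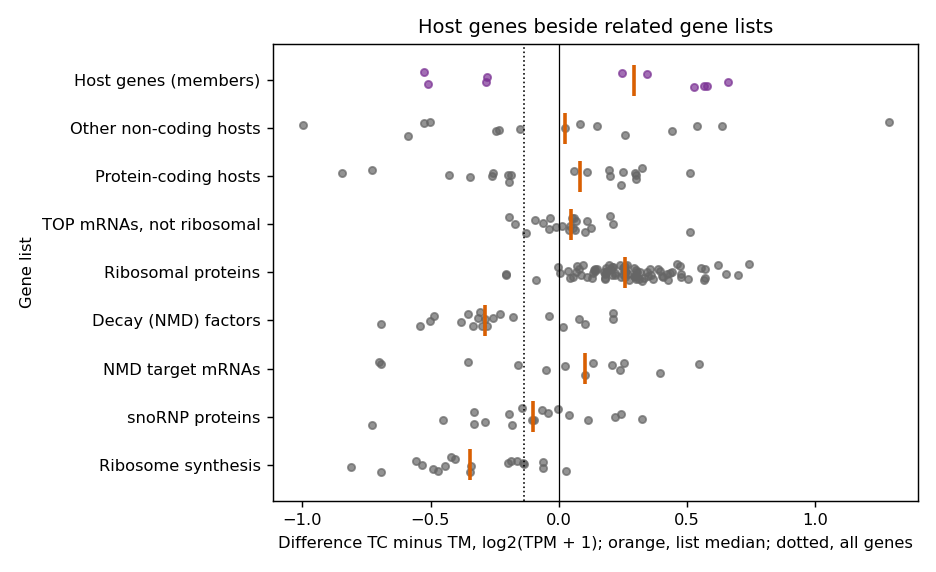
Difference TC minus TM in log2(TPM + 1) of every tested gene (points) of the 10 hosts and 8 related lists, with the median of each list in orange and that of all tested genes as a dotted line at -0.14. The hosts spread to both sides of 0, most ribosomal protein genes lie above 0, and most genes for ribosome synthesis lie below 0.

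The decay machinery that removes spliced hosts had no gene called. Of 21 tested NMD factors, 0 were higher and 4 lower in TC at an unadjusted p under 0.05, with a median of -0.29. The 4 genes are 19.0% of the list, near the 14.2% of all tested genes that were lower. After median-of-ratios rescaling 0 were higher and 2 lower (SMG5 and CASC3), with a median of -0.11. SMG5, which recruits decay enzymes to UPF1, was at 35.14, 31.74 and 32.03 TPM in TC and at 54.31, 53.71 and 53.72 TPM in TM (difference -0.69, adjusted p = 0.0813 by limma). UPF1, the central helicase, was at 33.8 ± 6.53 and 47.8 ± 4.0 TPM (SD, n = 3 each, difference -0.50, adjusted p = 0.205 by limma). CASC3 and EIF4A3, of the exon junction complex, were at -0.49 (adjusted p = 0.178 by limma) and -0.30 (adjusted p = 0.288 by limma). Messenger RNAs known as NMD targets did not share 1 direction: of 13 tested, 1 was higher and 2 lower, with a median of 0.10, and after median-of-ratios rescaling 1 was higher and 1 lower. DDIT3, a stress transcription factor, was at 0.40, MAP3K14 was at -0.70, and SMG5 is in this list as well.

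The proteins that bind and assemble snoRNAs likewise had no gene called. Of 18 tested, 0 were higher and 3 lower at an unadjusted p under 0.05, or 16.7% lower and so near the 14.2% of all tested genes, namely NOP56, DKC1 (the pseudouridine synthase of box H/ACA snoRNPs, -0.45) and RUVBL1 (an assembly ATPase, -0.33). Their median was -0.10. After median-of-ratios rescaling 1 was higher and 1 lower (NOP56), with a median of 0.078. Of 19 genes for ribosome synthesis, 0 were higher and 8 lower, or 42.1% lower against 14.2% of all tested genes, with a median of -0.34. After that rescaling 0 were higher and 2 lower (NOP2 and POLR1A), with a median of -0.16. NOP2, an rRNA methyltransferase, was at -0.81, POLR1A, the large subunit of RNA polymerase I, at -0.69, and FTSJ3, another rRNA methyltransferase, at -0.47. MYC, which drives ribosome synthesis, was at 105 ± 6.05 TPM in TC and 158 ± 36.9 TPM in TM (SD, n = 3 each, difference -0.56, adjusted p = 0.168 by limma). None of the genes in these lists passed an adjusted p under 0.05 by limma.

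The margin libraries differed among themselves in other tissue's RNA. VIM, CD44, KRT8 and KRT18 were found in all samples, with VIM at 3797 to 5283 TPM, while ESR1 and PGR did not exceed 0.22 TPM and ERBB2 was at 22.3 to 40.7 TPM, as the label of the line implies. Skeletal muscle markers (13 of 14 in the matrix) summed to 4.63 to 8.43 TPM in TC and to 200, 539 and 3.37 TPM in TM replicates 1 to 3, with MB at 0 in all 3 TM samples. Fibroblast markers (10 of 10 in the matrix) summed to 66.3 to 226 TPM in TC and 91.5 to 1007 TPM in TM, mostly from COL1A1, COL1A2 and COL3A1. LUM (mean 0.22 TPM in TC, 0.06 in TM) and PDGFRA (0.20 and 0.15) alone had a higher mean in TC. Endothelial, macrophage and adipocyte sums overlapped between the groups, at 60.3 to 74.9 against 64.5 to 81.1, 95.5 to 107 against 103 to 110, and 16.4 to 29.3 against 17.1 to 30.9 TPM. Most of each sum came from EGFL7 and ESAM, from CD68, and from PPARG, so the sums say little about the other markers. Of the 3 tested macrophage markers only CSF1R had its groups apart, at 1.99 to 3 TPM in TC and 3.1 to 9.12 TPM in TM. TYROBP, ADIPOQ and LEP were at 0 in every sample. Since the build named is the human hg38, mouse host cells count here only where their reads match a human gene. A value of 0 therefore does not show that such cells were absent. The part of these cells in the host gene values was not tested as such. With TM replicates 1 and 2 both left out, an alternative added after the data were seen in which 1 margin sample remained and was assumed to vary like the core, SNHG8 was at 0.72, ZFAS1 at 0.43, SNHG5 at 0.36, SNHG6 at 0.34, SNHG7 at 0.53, SNHG16 at -0.63, SNHG1 at -0.62, SNHG12 at -0.45 and SNHG15 at -0.34, and GAS5 was at -0.14. Mitochondrially encoded genes took up 6.09% to 8.84% of TPM in TC and 9.24% to 11.1% in TM (two-sided exact permutation p = 0.1). The nuclear RNAs MALAT1 and NEAT1 summed to 24.7 to 37.5 TPM in TC and 70.6 to 145 TPM in TM, with NEAT1 at -1.15 (adjusted p = 0.0658 by limma) and MALAT1 at -2.57 (adjusted p = 0.0813 by limma).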

How the data were processed

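The authors deposited a matrix of TPM per gene for 3 TC and 3 TM samples, prepared from total RNA with a TruSeq RNA kit. Per the study's methods, SeqPrep and Sickle trimmed the reads, HISAT2 aligned them, StringTie assembled transcripts against a reference and RSEM quantified genes; the submitters' processing notes name hg38, and tool versions and the annotation release were not given in the sources used here. TPM keeps no depth, so depth is unknown, the study's count model could not be run on these values, and precision was judged from the spread between samples. The column sum was 1000000 for 5 samples and 994381 for TM replicate 3. The 259 assembled loci outside the annotation were left out. P-values weigh a difference against the spread between these 3 and 3 samples. In limma the spread used for a gene is drawn toward a trend over all tested genes.

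The 13861 genes that reached 1 TPM in 3 or more of the 6 samples were tested on log2(TPM + 1), a scale that understates the change of low genes, with limma 3.58.1 in R 4.3.3 (empirical Bayes with a mean-variance trend, two-sided, Benjamini-Hochberg over all tested genes, called at an adjusted p under 0.05). The test was checked on simulated data. Positions, transcript lengths and nested snoRNAs came from GENCODE release 29, which held 96.3% of the annotated genes, and start sequences from RefSeq (GRCh38.p14). Named genes were the 10 hosts, up to 4 genes by smallest p under 0.05 per list (not all are printed), facing coding genes, and the 3 nearest profiles among genes with a mean of at least 10 TPM. Alternatives tried were 0.1 as the pseudocount, other filters (none, or a mean of at least 5 TPM), quantile and median-of-ratios scaling, TPM without mitochondrial or ribosomal protein genes, the replicate block, moderation without a trend or robust, each sample left out in turn, and, added after the data were seen, removal of a length and GC trend and of TM replicates 1 and 2 together. The hosts and lists were chosen with earlier results of these data known. Figures were drawn with matplotlib 3.10.9.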

Additional observations from a re-analysis of the deposited data

How the results depend on the processing

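The 10 host differences were recomputed under 18 alternatives, 180 values in all. Of these, 179 kept their direction, and the exception was GAS5, at -0.14 with TM replicates 1 and 2 both left out. Other filters, the replicate block and other forms of moderation leave the estimate itself unchanged, so no direction could change under them. The number of hosts called by limma was 0 under each alternative. The count of hosts lower in TC at an unadjusted p under 0.05, 2 as reported, was 1 after quantile normalization, 0 after median-of-ratios rescaling and 1 with the length and GC trend removed; leaving out 1 sample at a time gave 1 to 2, with 1 without TC replicate 2 or TM replicate 2, where SNHG1 no longer passed. The count with every TC value below every TM value, also 2, was 1 under each of these 3 settings, and 2 to 4 when 1 sample was left out, with 4 without TC replicate 3 and 3 without TM replicate 1. With 1 sample fewer, groups come apart more easily for any gene. The share of all tested genes was not computed for these settings, so the rise is not read as a result about the hosts. The count higher in TC was 4 or 5 in each setting that kept at least 2 samples a side. SNHG5, SNHG6, SNHG8 and ZFAS1 were in it each time. GAS5 joined them without TM replicate 3, and SNHG7 joined them with the length and GC trend removed. With TM replicates 1 and 2 both left out, the differences of SNHG5 and SNHG6 fell to 0.36 and 0.34. Where an alternative moved a value, the cause was not tested. Genes called over the whole table, 19 as reported, numbered 1 without the filter, 4 after quantile normalization, 6 after median-of-ratios rescaling, 47 with robust moderation, 1 without TC replicate 3 or TM replicate 1, and 195 with TM replicates 1 and 2 left out, where 1 margin sample remained.

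The samples share replicate numbers, but the labels do not say that these mark pairs, and the main fit was unpaired. Same-numbered samples had correlations of deviations across genes of 0.21, -0.12 and -0.16. Over all combinations of a core and a margin sample the values ran from -0.23 (TC replicate 1 with TM replicate 2) to 0.32 (TC replicate 3 with TM replicate 2). These values cannot tell whether cores and margins came from the same mice under other numbers. In other tumors the study compared core and margin with paired tests. With the replicate block, 0 hosts and 1 gene overall were called, and 4 hosts were higher and 2 lower at an unadjusted p under 0.05. TPM gives no read counts, so the precision of low values, such as those of the nested snoRNAs, could not be judged.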
